A study of Rattus norvegicus with 6 samples.

Results

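Olfactory receptor genes of families 1 and 2 were examined in rat liver as a set of genes with a known role in the nose and low signal in this tissue. Of the 19345 transcript rows on the arrays, 46 carried a gene symbol of these families, with 1 row per gene, 18 in family 1 and 28 in family 2. They were chosen by symbol after RefSeq accessions had been matched to rat gene names, without a filter on their measured values. Earlier results of these data were known at that point. The matching table lists 271 such symbols, so the 46 genes are those whose accession was on the array and in that table. They lay on 7 chromosomes, with 31 on chromosome 10, 5 on chromosome 20, 3 on chromosome 1, 2 each on chromosomes 3, 4 and 11, and 1 on chromosome 8.

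The livers came from male Sprague-Dawley rats, 90 to 120 days old, all bled by tail amputation to model uncontrolled hemorrhagic shock and all infused with Ringer's solution, a balanced salt solution, from that moment. In the limited group the infusion held mean arterial pressure at 50 to 60 mmHg, and in the aggressive group it aimed at over 80 mmHg. Livers were taken at 330 min, and 3 of the 6 rats assigned to each regimen were each measured on a 1-colour NimbleGen array. Unbled rats were not analysed here, so no value gives a distance from the normal liver. All values are RMA intensities (background-corrected, normalised and summarised over probes), in arbitrary units, with medians over all rows between 212 and 245. With 3 arrays in each group the p values measure the spread between these rats only. In bulk liver RNA, fewer cells of a type and less RNA per cell cannot be told apart. Signals of different probes rank brightness and do not measure relative amounts of RNA.

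Olfactory receptors are G protein-coupled receptors of the sensory neurons of the nasal epithelium. Each neuron uses a single receptor gene, chosen from large tandem clusters of close relatives whose coding sequence usually lies within an uninterrupted exon. An odorant-bound receptor activates the G protein subunit encoded by Gnal, adenylyl cyclase 3 (Adcy3) and a cyclic nucleotide-gated channel (Cnga2, Cnga4 and Cngb1), and mature neurons are marked by the olfactory marker protein Omp. A few family members have been described outside the nose, such as human OR1A1 in hepatocyte-derived cells and human OR1D2 in sperm.

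Close relatives on the array are shown first, since probes to such genes can share targets. RefSeq promoter windows of GRCr8, matched by gene, were given for 37 of the 46 genes, and in all 37 the annotated start was the ATG start codon, against 10.5% of 27457 genes with such windows. The window therefore ends with the first 50 coding bases. Between any 2 of the 37 genes, 7 to 50 of these bases were identical position by position, with a median of 22 over 666 pairs. In the sets below, bases in lower case match the first gene of the set and capitals mark bases that differ from it. The array's own probe sequences were not used here.

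The first set holds the brightest gene, Or1e28, with 3 relatives of its subfamily.
Or1e28: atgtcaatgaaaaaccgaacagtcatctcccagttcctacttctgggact
Or1e27: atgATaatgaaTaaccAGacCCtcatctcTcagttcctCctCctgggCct
Or1e25: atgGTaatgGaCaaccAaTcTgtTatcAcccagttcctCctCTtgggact
Or1e16: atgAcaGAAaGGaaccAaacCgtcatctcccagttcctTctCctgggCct
These 4 starts lie at chr10:58968132-58968181 (minus strand), chr10:58904833-58904882 (plus), chr10:58945714-58945763 (minus) and chr10:58772528-58772577 (plus) of GRCr8. The relatives differ from Or1e28 at 11, 12 and 11 bases.

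The second set holds 4 genes of subfamily 2Y, among them the second brightest gene, Or2y1c, and one of the dimmest, Or2y1d.
Or2y1g: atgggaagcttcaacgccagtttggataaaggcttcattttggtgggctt
Or2y1h: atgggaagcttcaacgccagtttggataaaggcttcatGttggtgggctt
Or2y1c: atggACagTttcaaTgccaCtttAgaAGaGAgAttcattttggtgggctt
Or2y1d: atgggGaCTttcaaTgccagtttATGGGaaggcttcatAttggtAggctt
All 4 are on the plus strand of GRCr8, at chr10:34099903-34099952, chr10:34110628-34110677, chr10:34218945-34218994 and chr10:34177613-34177662. Or2y1h differs from Or2y1g at 1 base, and Or2y1c and Or2y1d at 11 bases each.

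The third set is a pair whose first 50 bases are the same, the relatives of human OR1A1.
Or1a1: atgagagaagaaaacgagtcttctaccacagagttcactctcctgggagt
Or1a1b: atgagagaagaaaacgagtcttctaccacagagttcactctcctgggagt
They lie at chr10:59557386-59557435 (plus) and chr10:59569579-59569628 (minus) of GRCr8.

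The signal of the 46 genes was low on each array and similar in the 2 groups. Their median intensity was 54.1, 42.7 and 51.8 on limited arrays 1, 2 and 3, and 56.0, 54.1 and 49.8 on aggressive arrays 1, 2 and 3. The lowest member value was between 15.9 and 20.9 by array and the highest between 172 and 227, and all 46 genes stayed under the median of all rows on each of the 6 arrays. Ordered by mean log2 intensity, the 46 genes lay between percentile 0.0517 and percentile 45.7 of all rows, with a median at percentile 10.0, and 38 of them were among the rows up to percentile 25. Families 1 and 2 had similar median differences between groups, -0.20 and -0.10 on the log2 scale (limited minus aggressive).

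**Figure D1:**
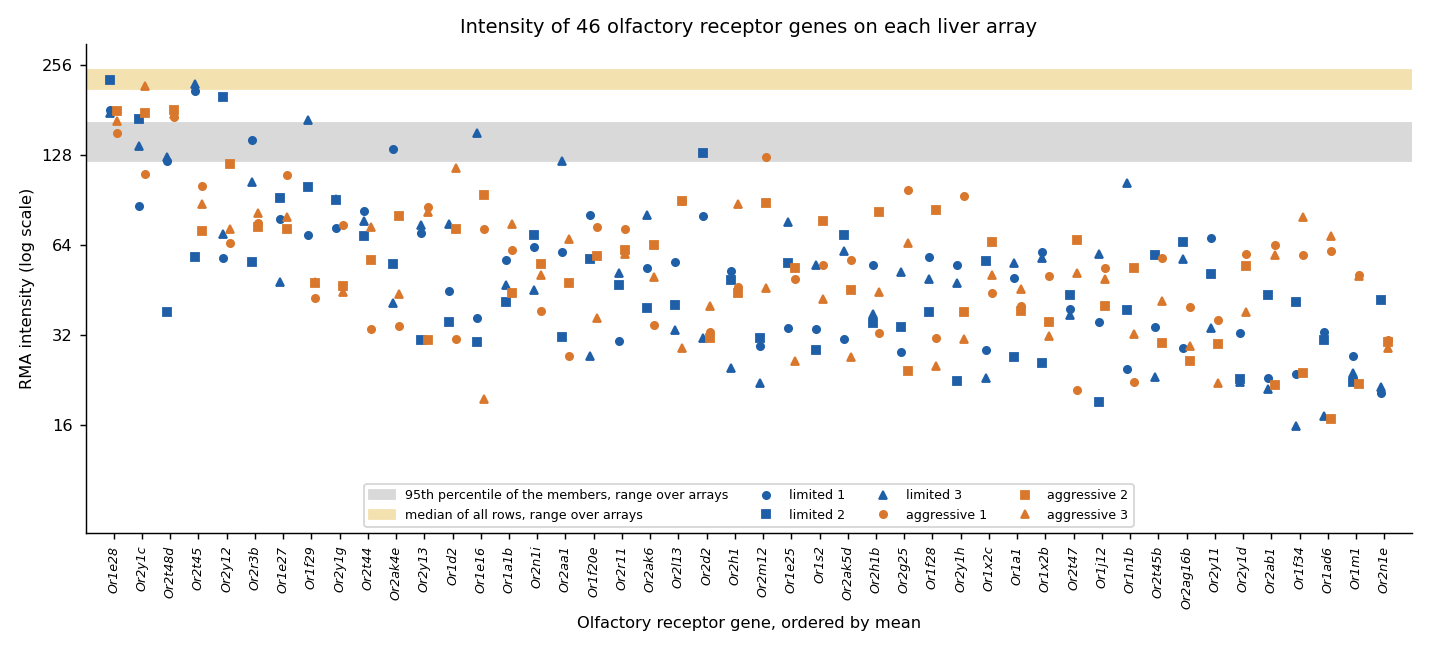
RMA intensity on a log scale (y) of the 46 genes (x, ordered by mean), 1 point per array, blue for limited and orange for aggressive arrays. The grey band spans the 95th percentile of the 46 genes over arrays (122 to 163) and the yellow band the median of all rows (212 to 245). Only Or1e28 stays at the level of the grey band or above it on all arrays.

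As a floor, the 95th percentile of the 46 genes was taken on each array. It was 141, 159 and 163 on the limited and 122, 162 and 154 on the aggressive arrays, with a geometric mean of 149. By its definition 3 genes exceed it on each array, and these were not the same genes: 8 genes exceeded it on at least 1 array, 4 of them on a single array. Of all rows, between 56.1% and 61.0% lay above the floor by array, 51.2% on all 6 arrays and 30.9% on none.

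Or1e28 was the brightest of the 46 genes and the only one above the floor on all 6 arrays. Its intensity was 181, 227 and 176 on the limited and 151, 179 and 166 on the aggressive arrays. The groups overlapped, and the log2 difference, limited minus aggressive as throughout, was 0.23 (SE 0.193; adjusted p = 0.675, limma). It also had the smallest ratio of highest to lowest value among the 46 genes. Its relatives were dimmer: Or1e27 ranged from 48.1 to 109, Or1e25 from 26.3 to 76.2, and Or1e16 from 19.6 to 152, the widest ratio of any of the 46 genes at 7.72-fold.

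The next brightest genes crossed the floor on some arrays and not on others. Or2y1c read 86.2, 169 and 137 on the limited and 110, 176 and 216 on the aggressive arrays. Or2t48d read 122, 38.4 and 126 on the limited against 172, 181 and 175 on the aggressive arrays. The groups of Or2t48d did not overlap, and its low limited value came from array 2. Without that array the log2 difference of Or2t48d went from -1.07 to -0.50. Or2t45 was bright on limited arrays 1 and 3 only, at 210, 58.5 and 220 on the limited and 101, 71.4 and 88.0 on the aggressive arrays, so that its groups overlapped. Or2y12 owed its rank mostly to 1 array, at 200 on limited array 2 against 58.1 to 119 elsewhere. Or2r3b, at 56.3 to 143, and Or1e27, which never exceeded the floor, complete the brightest genes besides Or1f29.

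At the other end, Or2n1e was the dimmest, at 20.5, 41.8 and 21.4 on the limited and 30.8, 30.3 and 29.0 on the aggressive arrays. Or1m1 read 27.2, 22.3 and 23.9 on the limited and 50.9, 22.1 and 50.6 on the aggressive arrays. Or1ad6 was 32.9, 30.8 and 17.2 on the limited against 61.1, 16.8 and 68.6 on the aggressive arrays, and Or1f34 was 23.7, 41.2 and 15.9 against 59.5, 24.0 and 79.2. In these 3 genes aggressive arrays 1 and 3 were the highest 2 of the 6, and aggressive array 2 lay with the limited arrays.

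That order occurred in 7 of the 46 genes (15.2%), against 9.66% of all rows, 7.08% of the dimmest 10% of rows and 6.37% (10 genes) of the 157 other olfactory receptors. Of the 15 pairs of arrays, this one was singled out after the values were seen, and it held the largest number of the 46 genes. If all pairs were equally likely, each would hold 6.67% of genes. Limited arrays 1 and 3 held 5 of the 46 genes, as did limited arrays 2 and 3. Lung transcripts stood out on aggressive arrays 1 and 3. The surfactant protein C gene Sftpc, named after its values were seen, read 1247 and 1734 there, against 33.7 on aggressive array 2 and 30.3 to 57.0 on the limited arrays. Of 15 measured lung genes, a list chosen with earlier results known, 13 and 15 were above the floor on aggressive arrays 1 and 3, and 3 to 5 on the other arrays. Their summed intensity was 7897 and 11245, against 2864 to 3730. The part of this in the receptor values was not tested. For the 46 genes together, summed intensity was 2868 and 2789 on aggressive arrays 1 and 3, and between 2661 and 2996 on the other 4. Without aggressive arrays 1 and 3, the median log2 difference of the 46 genes was -0.0028, against -0.13 with all arrays.

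In the test across all rows, 0 of the 46 genes passed limma's moderated test with Benjamini-Hochberg adjustment at 0.05. Over all rows 22 passed, or 0.114%, of which 8 (0.0414%) were higher and 14 (0.0724%) lower in the limited group, so a count of 0 among 46 is near the background. The smallest adjusted p among the 46 genes was 0.184. With an intensity trend and robust prior, where 2.95% of all rows passed, the count among the 46 was also 0, as it was with array weights (0.114% of all rows) and in each of the other fits that kept these genes.

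The log2 differences of the 46 genes centred near 0. Their median was -0.13 and their mean -0.08, with 21 above and 25 below 0, against a median of 0.012 over all rows. Their SD was 0.58, the middle 50% lay between -0.53 and 0.30, and the extremes were -1.55 and 1.19. Over all rows the SD was 0.45. Leaving out any 1 array moved the median to between -0.10 and 0.0081, with 0.0081 without aggressive array 1 and -0.031 without aggressive array 2.

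**Figure D2:**
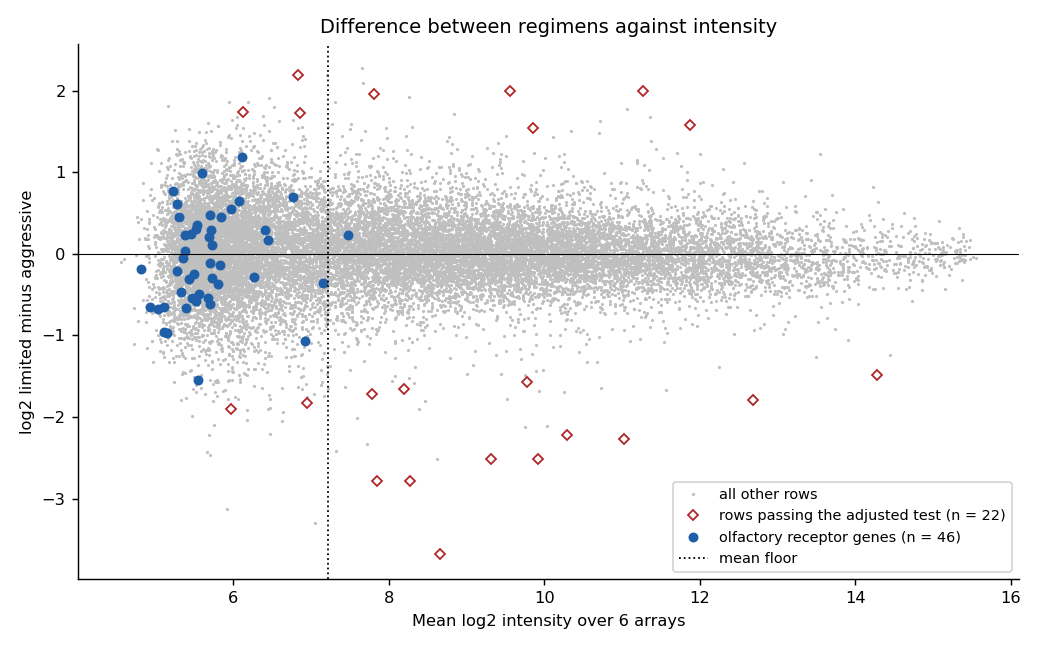
The log2 difference between limited and aggressive arrays (y) against mean log2 intensity over the 6 arrays (x) for all rows (grey), the 46 olfactory receptor genes (blue) and the 22 rows that passed the adjusted test (red diamonds). The dotted line marks the mean floor of 149, and the blue points span -1.55 to 1.19.

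At an unadjusted p under 0.05 the 46 genes gave 7 (15.2%), against 13.1% of all rows, so small p values were about as frequent among them as in the whole table. Both shares were above the 5.33% of unchanged rows in the simulated data described below. The reason was not tested. Of the 7, 3 were higher and 4 lower in the limited group, 6.52% and 8.70% of the genes against 6.86% and 6.19% of all rows. A smaller share of the 46 genes had groups without overlap, 5 of them (10.9%) against 19.8% of all rows. If the 6 arrays were exchangeable, a fraction of 0.1 would be expected in either direction together, and the share of the 46 genes was near it. Of the 5, 1 was higher in the limited group (10.0% of all rows) and 4 were lower (9.76% of all rows), and Or2r11, at 30.6 to 51.6 against 59.5 to 72.3, was among the latter with a log2 difference of -0.61 (adjusted p = 0.363, limma). With the intensity trend, which lets the assumed variance depend on brightness, 4 of the 46 (8.70%) had an unadjusted p under 0.05, while the share of all rows was 15.4%. A difference of at least 2-fold was reached by 3 genes (6.52%), against 3.81% of all rows, with 1 higher (1.88% of all rows) and 2 lower (1.93%) in the limited group.

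The largest single differences did not pass. Or2m12 read 29.6, 31.3 and 22.2 on the limited against 125, 88.6 and 45.9 on the aggressive arrays. Its groups did not overlap, and its log2 difference of -1.55 (SE 0.374) had the smallest p of the 46 genes (adjusted p = 0.184, limma). Its level exceeded the floor on a single array, aggressive array 1. Or1f29 was the largest in the other direction, at 69.2, 99.8 and 167 on the limited against 42.6, 47.9 and 48.0 on the aggressive arrays. It had no overlap and a log2 difference of 1.19 (SE 0.322; adjusted p = 0.213, limma).

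Or2y1d was 32.7, 22.8 and 22.3 on the limited against 59.6, 54.6 and 38.2 on the aggressive arrays, without overlap, a log2 difference of -0.97 (adjusted p = 0.209, limma). Its close relative Or2y1g went the opposite way, at 72.8, 90.4 and 91.1 against 74.4, 46.6 and 44.7, with overlap and a difference of 0.65 (adjusted p = 0.348, limma). Another gene of the same subfamily, Or2y11, differed by 0.77 with overlap (adjusted p = 0.363, limma). Other large differences were 0.99 for Or2d2, 0.70 for Or2t45 and 0.61 for Or2ag16b, and -0.95 for Or1f34, -0.67 for Or1ad6 and -0.66 for Or1x2c, all with overlapping groups and adjusted p values between 0.439 (Or2d2) and 0.663 (Or1ad6) by limma. Single arrays weighed heavily in them. With 1 array left out, the difference of Or2d2 ranged from 0.54 to 1.56, that of Or2t45 from 0.37 to 1.32 and that of Or2ag16b from 0.38 to 0.97. In the other direction Or1f34 ranged from -1.46 to -0.60, Or1ad6 from -1.32 to -0.31 and Or1x2c from -1.04 to -0.39. The difference of Or2d2 rested on its limited values of 80.1 and 130 on arrays 1 and 2, since limited array 3, at 31.3, read like the aggressive arrays at 31.3 to 40.1.

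Genes with the same or nearly the same coding start kept no fixed order over the arrays. Or1a1 read 49.8, 27.1 and 55.8 on the limited and 39.9, 38.6 and 45.5 on the aggressive arrays, and Or1a1b read 56.9, 41.4 and 47.0 and then 61.4, 44.2 and 74.9. Or1a1 was the higher of the pair on 1 of 6 arrays. Or2h1 and Or2h1b, also identical over the first 50 bases, were each the higher on 3 arrays. Or2y1g exceeded Or2y1h on 5 of 6 arrays. In the 2Y set printed above, the values of Or2y1c, at 86.2 to 216, were all above those of Or2y1d, at 22.3 to 59.6.

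**Figure D3:**
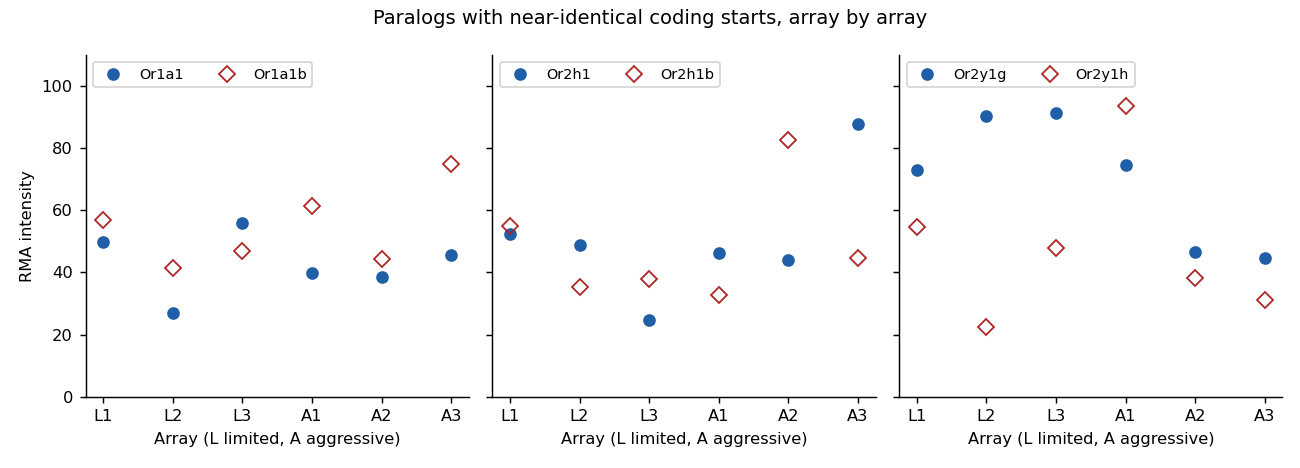
RMA intensity (y) on each of the 6 arrays (x; L limited, A aggressive) for 3 pairs of relatives, Or1a1 with Or1a1b, Or2h1 with Or2h1b, and Or2y1g with Or2y1h. The first 2 pairs are identical over the first 50 coding bases and the third differs at 1 base, and in no pair is the same gene the higher on all 6 arrays.

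The spread of the 46 genes between 2 arrays was about as large within a group as between groups. The SD of their log2 differences lay between 0.79 and 1.05 for the 6 pairs of arrays of the same group and between 0.79 and 1.09 for the 9 pairs across groups. Over all rows these SDs were 0.58 to 0.64 within and 0.64 to 0.73 across groups. Pearson correlations of log2 intensity across the 46 genes were 0.31 to 0.56 within and 0.17 to 0.53 across groups, against 0.955 to 0.970 across all rows. These are descriptions across genes that share arrays and normalisation. Geometric means ran from 28.2 to 179 in the 46 genes and from 23.6 to 48178 over all rows. A narrower range lowers a correlation by itself, so the correlations of the 46 genes and of all rows are not like measures. For a single gene the highest of the 6 values was a median of 2.93-fold above the lowest, against 1.91-fold over all rows, and the median SD within groups was 0.58 against 0.31.

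Dim rows of the whole table spread in a like way. With all rows divided into 10 equal classes of mean intensity, 23 of the 46 genes fell in the dimmest class, 13 in the second, 4 in each of the next 2, 2 in the class after those, and 0 in the brighter classes. The SD of log2 differences was 0.52, 0.54 and 0.56 in the 3 dimmest classes and 0.30 in the brightest, and the median SD within groups went from 0.55 in the dimmest to 0.18 in the brightest. The share of rows without overlap went from 11.1% in the dimmest class to 28.1% in the brightest, while the share with an unadjusted p under 0.05 stayed between 10.6% and 15.5%. The SD of 0.58 of the 46 genes was above that of each class. Their share without overlap, 10.9%, was next to that of the dimmest class, and their share at an unadjusted p under 0.05, 15.2%, was within the range of the classes.

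**Figure D4:**
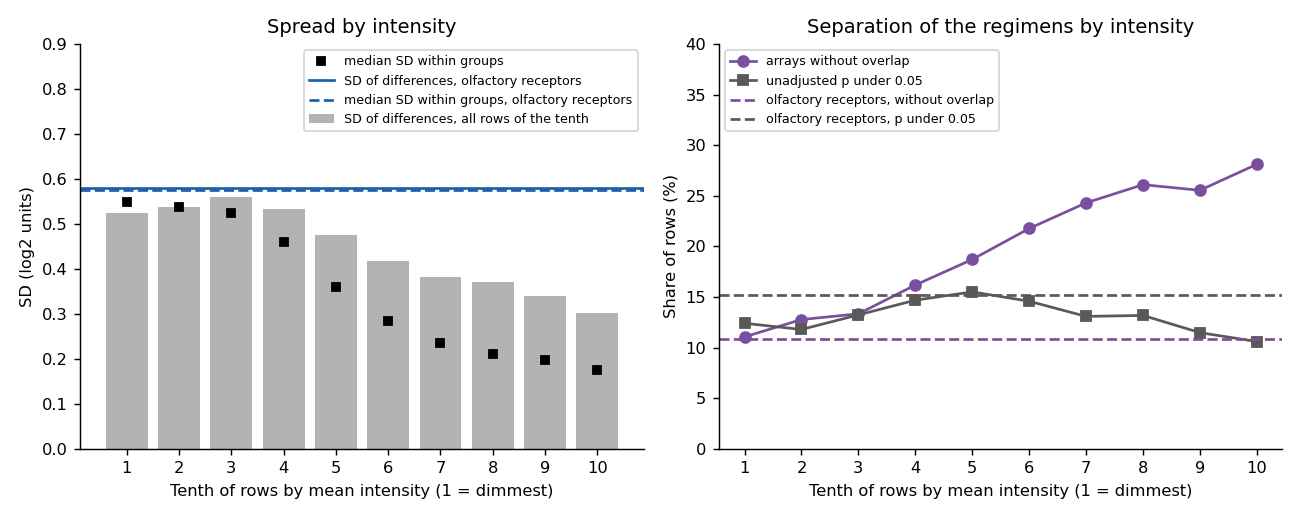
Left, SD of log2 differences (bars) and median SD within groups (squares) for all rows in 10 classes of mean intensity, with the 46 olfactory receptor genes as lines, both at 0.58. Right, share of rows whose groups do not overlap (purple) and with an unadjusted p under 0.05 (grey), with the 46 genes as dashed lines at 10.9% and 15.2%.

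Other chemosensory receptors had median intensities close to that of the 46 genes. The 157 other olfactory receptors with a symbol had a median intensity of 46.7, against 47.1 for the 46 genes, and their differences had a median of -0.023 and an SD of 0.60, from -1.77 to 1.67, with 0 passing limma's adjusted test and 19 (12.1%) at an unadjusted p under 0.05. Their extremes were Olr1720, at 221, 45.3 and 167 on the limited against 33.4 to 40.6 on the aggressive arrays, and Or8g52b, at 18.7, 32.2 and 19.6 against 83.5, 91.9 and 60.8. Or8g52b did not overlap and differed by -1.77 (adjusted p = 0.0867, limma), the smallest adjusted p of any olfactory receptor here. The 7 vomeronasal receptors had a median intensity of 47.0 and the 9 taste and trace amine receptors of 47.1, and 0 of either group exceeded the floor on all arrays or passed limma's adjusted test, with 2 and 1 at an unadjusted p under 0.05.

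Olfactory receptors above the floor on all 6 arrays were 4 among the 157, namely Or52ab2b, Or52ab2, Or8b57 and Olr59. Or52ab2b read 317, 339 and 294 on the limited and 207, 400 and 252 on the aggressive arrays, and its relative Or52ab2 read 280, 200 and 418 and then 348, 250 and 216. Or8b57 ranged from 204 to 301. Olr59, whose mouse counterpart is known from kidney and the carotid body, read 268, 209 and 179 on the limited and 146, 187 and 173 on the aggressive arrays, a log2 difference of 0.36 (adjusted p = 0.548, limma). A row with the symbol Olr1, at 369 to 913, was left out, since this symbol belongs to the oxidised LDL receptor LOX-1 and not to an olfactory receptor.

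Of 18 listed genes of olfactory signalling, 8 were measured, and 4 were above the floor on all arrays. These were Gnb1, a G protein beta subunit found in most cells, at 1206 to 1580, Arrb2, beta-arrestin 2, at 442 to 1045, Pde2a, a cyclic nucleotide phosphodiesterase, at 337 to 495, and Ric8b, a chaperone of G protein alpha subunits, at 209 to 396. Adcy3, the cyclase of olfactory cilia, stayed at 20.4 to 65.4, and the channel subunit Cngb1 at 28.5 to 205, over the floor on 1 array. The receptor kinase gene Grk3 was at 57.3 to 121, over the floor on no array, and the chloride cotransporter gene Slc12a2 at 99.3 to 243, over it on 3 arrays. Of the 8 genes 0 passed limma's adjusted test and 1 had an unadjusted p under 0.05, Slc12a2, with a log2 difference of -0.85 (adjusted p = 0.194, limma). Their median difference was 0.070, against 0.012 over all rows. Markers of olfactory neurons were at the level of the receptors, with 7 of 17 measured and 0 above the floor on all arrays. Omp read 57.9, 81.1 and 68.2 on the limited against 29.0, 56.9 and 30.4 on the aggressive arrays, without overlap, a difference of 0.89 (adjusted p = 0.298, limma). The 7 markers did not share that direction, with a median difference of -0.13, and Ncam2, a neural adhesion molecule named after its values were seen, differed by -1.06 (adjusted p = 0.312, limma). Of the 7, 0 passed limma's adjusted test and 2, Omp and Ncam2, had an unadjusted p under 0.05.

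Genes of hepatocytes stood far above the floor, as liver tissue would have them. All 25 measured genes of 26 listed exceeded it on each of the 6 arrays, with a median intensity of 35240, and Alb, albumin, read between 40478 and 54838. Of 9 measured genes with expression centred on the testis, 1 (Odf2) exceeded the floor on all arrays, and their median was 49.3. Of these 9 testis genes 0 passed limma's adjusted test and 2 had an unadjusted p under 0.05. Of the 25 hepatocyte genes 1 passed (0.114% of all rows), Tat, with a log2 difference of -1.48 (adjusted p = 0.0482, limma). Of the 15 lung genes 1 passed, Car4, above the floor on 3 arrays, with a log2 difference of -2.78 (adjusted p = 0.0348, limma). Among the 15, 7 (46.7%) had an unadjusted p under 0.05, against 13.1% of all rows. At least 2-fold lower in the limited group were 11 (73.3%), against 1.93% of all rows. In all, 13 had a difference below 0 and 2 had one above 0.

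**Figure D5:**
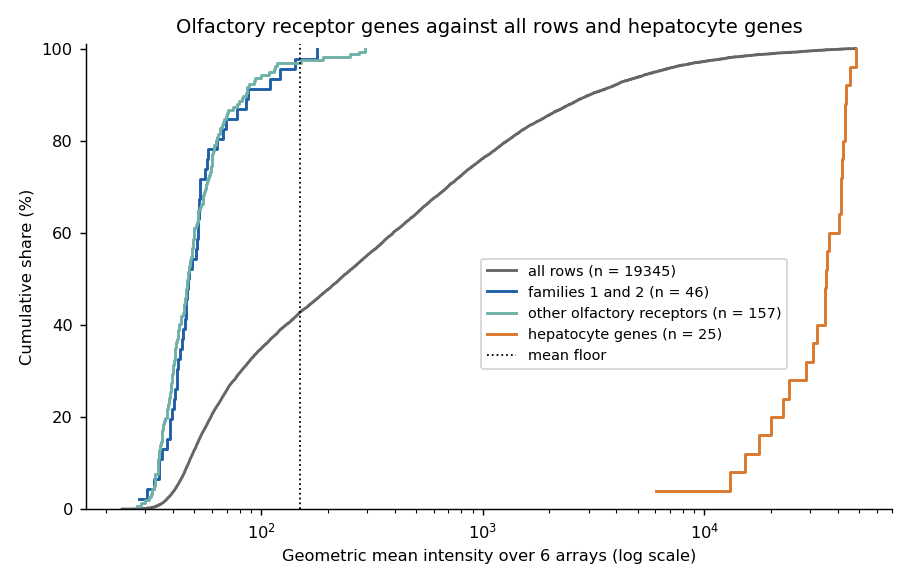
Cumulative share of genes or rows (y) by geometric mean intensity over 6 arrays (x, log scale) for all 19345 rows, the 46 genes, the 157 other olfactory receptors and 25 hepatocyte genes. The curves of both receptor sets run together with medians of 47.1 and 46.7, and the dotted line marks the mean floor of 149.

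Set against the floor, calls and large differences were distributed unevenly. Both group means lay under the mean floor in 7756 rows (40.1%), 1 of them over it in 905 rows (4.68%) and both over it in 10684 rows (55.2%). Of the 22 rows that passed, 2 had both means under, 8 had 1 over and 12 had both over. With the intensity trend and robust prior, the 570 passing rows divided into 27, 75 and 468 in that order. The division of the calls thus depended on the fit. The class with 1 over holds rows whose group means lie on opposite sides of the floor. Its definition thus favours rows with larger differences. Rows with a difference of at least 2-fold and an unadjusted p under 0.05, 623 in all or 3.22%, divided into 345, 122 and 156 in the same order. The count of 345 with both means under depended on the floor, at 236 with the 90th percentile of the 46 genes, 266 with the vomeronasal receptors and 391 with the 99th percentile. Such rows were 4.45% of the rows under the floor and 1.46% of those over it. Of the 623, 387 had a difference inside the extremes of the 46 genes, and of the 22 that passed, 21 had one outside them. Those extremes come from dim genes, while the SD of differences was 0.51 in rows under the floor and 0.36 in rows over it. With 3 arrays in each group, passing also favours large differences. Neither count is therefore a check of the calls.

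The floor was also set beside genes that are dim on one side, for 2 genes that passed, chosen after their values were seen. It comes from the probes of other genes, so a level over this floor does not bound the fold difference of either gene. The 22 passing rows, these 2 included, became 0 with the replicate block and in 5 of the 6 fits that left out 1 array, and 2 without aggressive array 2. Levels with SD are arithmetic means, while the fold values for both genes come from means of log2 intensity. Slc10a2, the apical bile acid transporter, had 54.5 ± 11.6 (SD, n = 3) on the aggressive arrays, under the floor. On the limited arrays it had 247 ± 47.4 (SD, n = 3). By mean log2 intensity, that limited level was 1.63-fold over the floor, where the measured ratio was 4.55-fold (adjusted p = 0.0446, limma). Fgf23, a phosphate-regulating hormone, was under the floor on the limited side at 114 ± 24.8 (SD, n = 3). Its aggressive level was 1506 ± 483.5 (SD, n = 3). By mean log2 intensity, that aggressive level was 9.69-fold over the floor, where the measured ratio was 12.9-fold (adjusted p = 0.0348, limma). The limited mean of Fgf23 was over the lower floors of 102 (90th percentile) and 110 (vomeronasal receptors).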

How the data were processed

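The deposited table holds 1 intensity per transcript and array on a linear scale. RMA is named in the submitters' processing notes, per the labels, with no version, scanner or filter. Groups and replicate numbers came from the sample titles. Nothing says whether RNA was handled in batches. Accessions without version were matched to RefSeq symbols of GRCr8, which named 7223 of 19345 rows, while no source used here names the array's own build.

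The test on log2 values used limma's lmFit and eBayes (limma 3.58.1, R 4.3.3; two-sided, 4 residual degrees of freedom) over all rows, with Benjamini-Hochberg adjustment. No test was made over a gene list. Simulated data with 19345 rows yielded 15 calls among 100 rows given a 2-fold change, 68 among 100 given a 4-fold change, and 8 among unchanged rows. Their noise was normal and independent, with the mean and SD of each real row and no array-wide effects. Of the unchanged rows 5.33% had an unadjusted p under 0.05, against 13.1% of all real rows. The yields therefore need not hold for the real data. Members and lists were chosen with earlier results of these data known. Named members are the 8 brightest, 4 dimmest, 6 largest differences per direction, 5 smallest p and those above the floor throughout, 19 in all; added names are Or2h1, Or2h1b, Or1a1, Or1a1b, Or2y1h, Or1e25 and Or1e16, shown for their sequences, and Or2r11, all after values were seen. The other alternatives were another quantile normalisation, centring on array medians, removal of dim rows, an intensity trend, array weights, the replicate block, other floors and symbol sets, and arrays left out. Same-numbered arrays did not deviate together (correlations of -0.06, -0.05 and 0.05).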

Additional observations from a re-analysis of the deposited data

How the results depend on the processing

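The count of 0 receptor genes passing held in every alternative that kept them; removal of rows under the median mean left none to test. The genes at an unadjusted p under 0.05 numbered 4 with an intensity trend and robust prior, 26 of 203 with all olfactory receptor symbols, and 5 to 9 with 1 array left out, where 1913 to 2382 of 19345 rows had such a p (13.1% with all arrays). All rows passing, 22 in the main test, became 483 without dim rows, 570 with the trend, 0 with the replicate block, 0 to 2 with 1 array left out (2 only without aggressive array 2) and 0 without aggressive arrays 1 and 3, where the lone aggressive array is assumed to vary like the limited ones. With the block, 6 of 46 receptor genes had an unadjusted p under 0.05, against 7 without it, and 11.4% of all rows did, against 13.1%. Same-numbered arrays did not deviate together, which does not settle whether the replicate numbers stand for pairs. The SD of the 46 differences was 0.57 to 0.70 with 1 array left out, the highest without aggressive array 2, and the median -0.10 to 0.0081. The floor of 149 became 102 at the 90th percentile, 191 at the 99th and 110 from vomeronasal receptors, and the share of rows above it on all arrays, 51.2%, became 56.1%, 47.2% and 53.8%. The count of passing rows with both means under the floor, 2, became 0 with the 90th percentile and 0 with vomeronasal receptors. Of 228 repeats for the 19 named genes, 6 turned the sign: Or2y12 went from 0.17 to -0.38 without limited array 2 and to -0.35 without aggressive arrays 1 and 3, Or2r3b from 0.29 to -0.0082 without limited array 1, and without aggressive arrays 1 and 3, an alternative chosen after seeing the data, Or1f34 went to 0.057, Or1ad6 to 0.62 and Or1m1 to 0.14. With 1 array left out, Or2y12 ranged from -0.38 to 0.51, Or2r3b from -0.0082 to 0.66. The causes were not tested. Signal over background is not known beyond this floor, so low transcripts of these genes would not be detectable here.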
